A study of Mus musculus with 49 samples.

Results

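Hippocampal RNA was compared between 16 libraries of offspring code F and 17 libraries of offspring code C, 33 of the 49 libraries of the series. They were taken by their mouse group label: CD-F and HFD-F with 8 libraries each on one side, CD-C with 8 and HFD-C with 9 on the other. All mice were of the inbred strain C57BLKS/J and 3 months old, and the labelled tissue was hippocampus, which serves spatial and episodic memory. Since the series title names obese mothers, their offspring and high-fibre feeding, CD and HFD were taken for the diet of the dam and C and F for that of the offspring; no label spells the codes out, and neither a diet's composition nor its timing is given in the sources used here. The question put to the data was which transcripts differ with offspring code F when maternal code (CD or HFD) and the XX or XY mark in the sample title are held as covariates. Each group has 4 XX libraries.

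Levels are FPKM, fragments normalized for transcript length and library size, one value per assembled or annotated row. A difference is F minus C on the scale log2(FPKM + 0.5), so 1 unit is a doubling, and low genes are understated. The column sums were 1245489 to 1340551 FPKM. Read totals were not at hand, and steps between low values at 410 rows gave relative depths of 0.961 to 1.07, which compares only values near a common spacing. Markers of the labelled tissue were present in all 33 libraries: Prox1 of dentate granule cells at 5.98 to 31.9 FPKM, Wfs1 of CA1 pyramidal cells at 30.3 to 149 FPKM and Neurod6 of excitatory neurons at 122 to 470 FPKM. Transcripts of other tissue also varied. Ttr, the defining choroid plexus transcript, ranged over 10.1 to 18800 FPKM, and Alb, the liver's albumin, reached at least 1 FPKM in 4 libraries, all of CD-C. Offspring letters also fall on different title prefixes (such as HFD2.2), which may mark litters or dams, although no label says so. Of 13 prefixes, 6 hold F and 10 hold C libraries. CD-F and CD-C share none, and 3 prefixes hold both HFD-F (8 libraries) and HFD-C (3 libraries). All XX libraries of HFD-F come from 1 of these prefixes and all XY libraries from the other two, so mark and prefix cannot be told apart there. Where a prefix marks a litter, litter and diet cannot be told apart under CD dams, and p-values measure the spread between libraries.

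As background, dietary fibre is fermented by gut bacteria to short-chain fatty acids, which are taken up by monocarboxylate transporters, activated to acyl-CoA, sensed by G-protein-coupled receptors and, in the case of butyrate, inhibit histone deacetylases. Sterol regulatory element-binding proteins (SREBPs) switch on cholesterol and fatty acid synthesis when membrane sterols are low, and the brain makes its own cholesterol because little crosses the blood-brain barrier. Chaperones fold proteins in the endoplasmic reticulum (ER), the cytosol and mitochondria, and their genes respond to misfolded protein. Glucocorticoids, the stress hormones to which the hippocampus is rich in receptors, act through a ligand-activated transcription factor and induce a known set of genes.

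F and C libraries differed at many rows by small amounts. Of 16035 rows that averaged 0.5 FPKM or more, 1572 were higher in F (9.8%) and 2129 were lower in F (13.3%) at adjusted p under 0.05, 23.1% in all. The median difference was 0.26 among the higher and -0.32 among the lower calls, against 0.011 over all rows tested. Few were large: 121 of the higher and 345 of the lower calls reached 0.5 log2, and 10 and 7 reached 1 log2.

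The difference was seen under both maternal codes, with unequal numbers of calls. CD-F minus CD-C had 2376 calls (14.8%), 891 higher (5.56%) and 1485 lower (9.26%), while HFD-F minus HFD-C had 319 (1.99%), 67 higher (0.418%) and 252 lower (1.57%). These comparisons have no library in common. The HFD-dam count rested on single libraries: it was 99 without HFD-F replicate 4, 142 without HFD-F replicate 3, 103 to 174 without HFD-C replicate 1, 2, 4, 6 or 9 in turn, 604 without CD-F replicate 8, which enters through the shared spread, and 0 with means per title prefix. Of the rows called under CD dams, 2314 of 2376 (97.4%) had the same sign under HFD dams, against 76.2% of all rows, and 265 were called under both, always in the same direction, which is 11.2% of the CD and 83.1% of the HFD calls. Across the 16035 rows both sets of differences had a Pearson r of 0.474 and a Spearman rho of 0.622, a description only, since rows are not replicates. The interaction of offspring and maternal code passed the threshold at 0 rows (limma; 528 rows at unadjusted p under 0.05), as did the interaction of offspring code with the XX or XY mark (0 rows; 412 unadjusted), so no row was shown to respond differently by dam or mark. A further 1447 rows were called in the pooled fit and under neither dam alone.

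**Figure D1:**
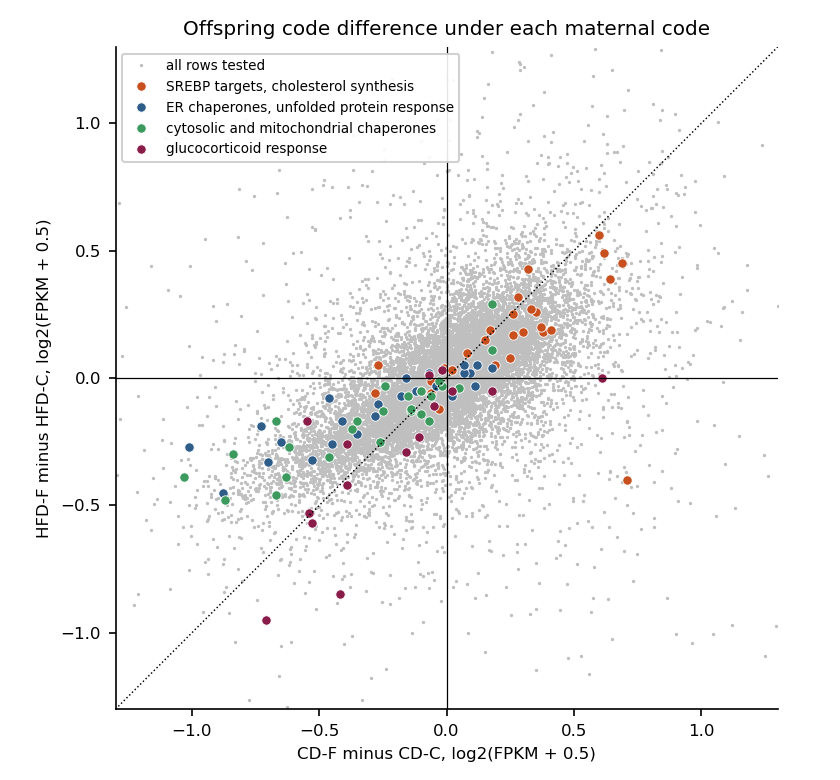
Each point is a row, with the CD-F minus CD-C difference on the x axis and the HFD-F minus HFD-C difference on the y axis, both as log2(FPKM + 0.5). Coloured points are members of 4 gene lists, the dotted line marks equal differences, and 145 rows lie outside the plotted range of 1.3 either side of 0. Most coloured SREBP points lie at the upper right and most chaperone and glucocorticoid points in the lower left.

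Within the 3 title prefixes that hold both letters, HFD-F minus HFD-C was less like the CD-dam difference. There, with prefix as a block (11 libraries, 6 residual degrees of freedom), 8 rows were called, 65.9% of rows had the sign of the CD-dam difference, and 2097 of the 2376 CD-dam calls (88.3%) did. These within-prefix values are given beside the results below as values, and with 3 C libraries they are imprecise. In each of the 3 prefixes the F libraries carry the other mark than the C library. The fit also held the mark as a covariate, so letter and mark were separated only by assuming equal mark effects in all 3 prefixes. Within any single prefix, a difference by letter and a difference by mark cannot be told apart.

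Among rows higher in F, the smallest p was that of Gna12, the alpha subunit of the G12 heterotrimeric G protein (chr5:140759944-140830431, GRCm38.p6). Gna12 lay between 1190 and 1580 FPKM in CD-F (median 1390) and between 1030 and 1870 FPKM in HFD-F (median 1330), against 739 to 1090 FPKM in CD-C (median 918) and 678 to 1030 FPKM in HFD-C (median 898). 15 of 16 F libraries lay above every C library, and the difference was 0.61 (SE 0.0688, adjusted p = 6.56e-07). The difference was 0.61 under CD dams (adjusted p = 0.000199) and 0.61 under HFD dams (adjusted p = 0.00131), and 0.50 within the shared prefixes. Such a level is high for a G-protein subunit, and what else the assembled row may hold was not tested.

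Srebf1 and Fads2, both lipid genes, followed next in the order of p among the rows higher in F. Srebf1, which encodes the SREBP that drives fatty acid synthesis (chr11:60199084-60224186), lay at 26.7 to 43.3 FPKM (median 39.5) in CD-F and 30.3 to 39 FPKM (median 34.7) in HFD-F, against 19.5 to 29.1 FPKM (median 24.5) in CD-C and 20.4 to 32.5 FPKM (median 24.5) in HFD-C. 11 of 16 F libraries lay above every C library. The difference was 0.55 (SE 0.0699, adjusted p = 3.62e-06), with 0.62 under CD dams (adjusted p = 0.000199) and 0.49 under HFD dams (adjusted p = 0.0111). Fads2, the desaturase that starts the making of long polyunsaturated fatty acids, lay between 209 and 266 FPKM in CD-F (median 240) and between 185 and 300 FPKM in HFD-F (median 239), against 143 to 201 FPKM in CD-C (median 172) and 152 to 217 FPKM in HFD-C (median 173). Its difference was 0.46 (SE 0.0617, adjusted p = 5.61e-06), and 12 of 16 F libraries lay above every C library. Both genes kept their sign within the shared prefixes, at 0.26 for Srebf1 and 0.26 for Fads2.

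Another 8 of the 12 rows with the smallest p were of mixed function. Ctc1, a telomere-capping subunit, and Mmp28, a secreted matrix metalloproteinase, were higher in F by 0.36 (adjusted p = 6.18e-06) and 0.57 (adjusted p = 2.66e-05); 15 of 16 F libraries lay above every C library for each. Pcx, pyruvate carboxylase, which refills the citric acid cycle in astrocytes, was higher by 0.37 (adjusted p = 2.95e-05). Rgma, a repulsive axon guidance molecule, Zyx, a focal adhesion protein, and Bak1, a pro-apoptotic membrane protein, differed by 0.38 (adjusted p = 2.8e-05), 0.45 (adjusted p = 3.41e-05) and 0.36 (adjusted p = 4.59e-05). Man2b2, a lysosomal mannosidase, and Cln6, an ER membrane protein whose loss causes lysosomal storage, differed by 0.40 (adjusted p = 3.22e-05) and 0.40 (adjusted p = 4.4e-05). Each of these 8 groups of values overlapped between F and C.

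**Figure D2:**
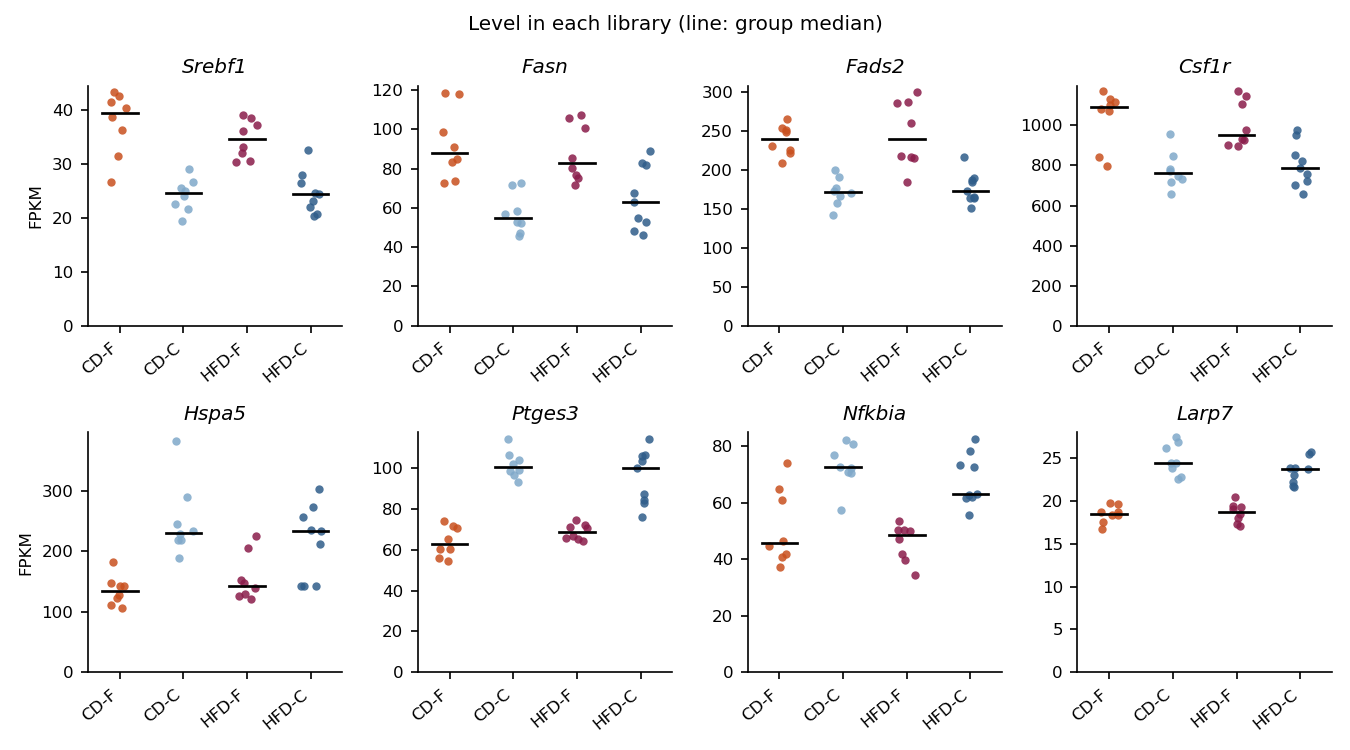
FPKM of 8 genes in each library (points) with the group median (line), for CD-F, CD-C, HFD-F and HFD-C. Srebf1, Fasn, Fads2 and Csf1r sit higher in both F groups, Hspa5, Ptges3, Nfkbia and Larp7 lower, and only Ptges3 and Larp7 of the 8 do not overlap between F and C.

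SREBP targets and cholesterol synthesis genes were higher in F as a list: 15 of 27 tested members rose, 0 fell and the median difference was 0.22, against 9.8% of all rows rising and a median of 0.011. The risers covered both regulators and the pathway. Srebf2, the SREBP of sterol synthesis, rose by 0.31 (adjusted p = 0.000177), and Fasn, fatty acid synthase, by 0.57 (adjusted p = 0.000125). Fasn lay at 71.9 to 118 FPKM in F (median 85), against 45.6 to 89.1 FPKM in C (median 56.8), so the letters overlapped. Insig1, the sterol-sensing ER anchor of the SREBPs, rose by 0.30 (SE 0.0824, adjusted p = 0.00837), and Mvk, Mvd, Fdft1, Sqle, Nsdhl, Dhcr7, Msmo1, Acly and Acaca also rose, by 0.15 to 0.37. The 12 members that did not pass include Hmgcs1, which makes HMG-CoA (-0.06), and Idi1 (-0.17). The list had 13 members higher under CD dams and 3 under HFD dams, with medians of 0.26 and 0.18. Removing the trend on GC content left 14 of 27, leaving out the 4 Alb-bearing libraries 12, and averaging libraries within title prefix 8. The sterol regulatory element, searched on both strands as TCACNCCAC, was found in 1 of 20 members with a promoter, Hmgcs1, which did not pass, in 0 of 11 risers with a promoter and in 1.44% of all genes. With prefix as a block the list's median was -0.04, with 11 members above and 16 below 0, Fasn at 0.02 and Srebf1 at 0.26.

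**Figure D3:**
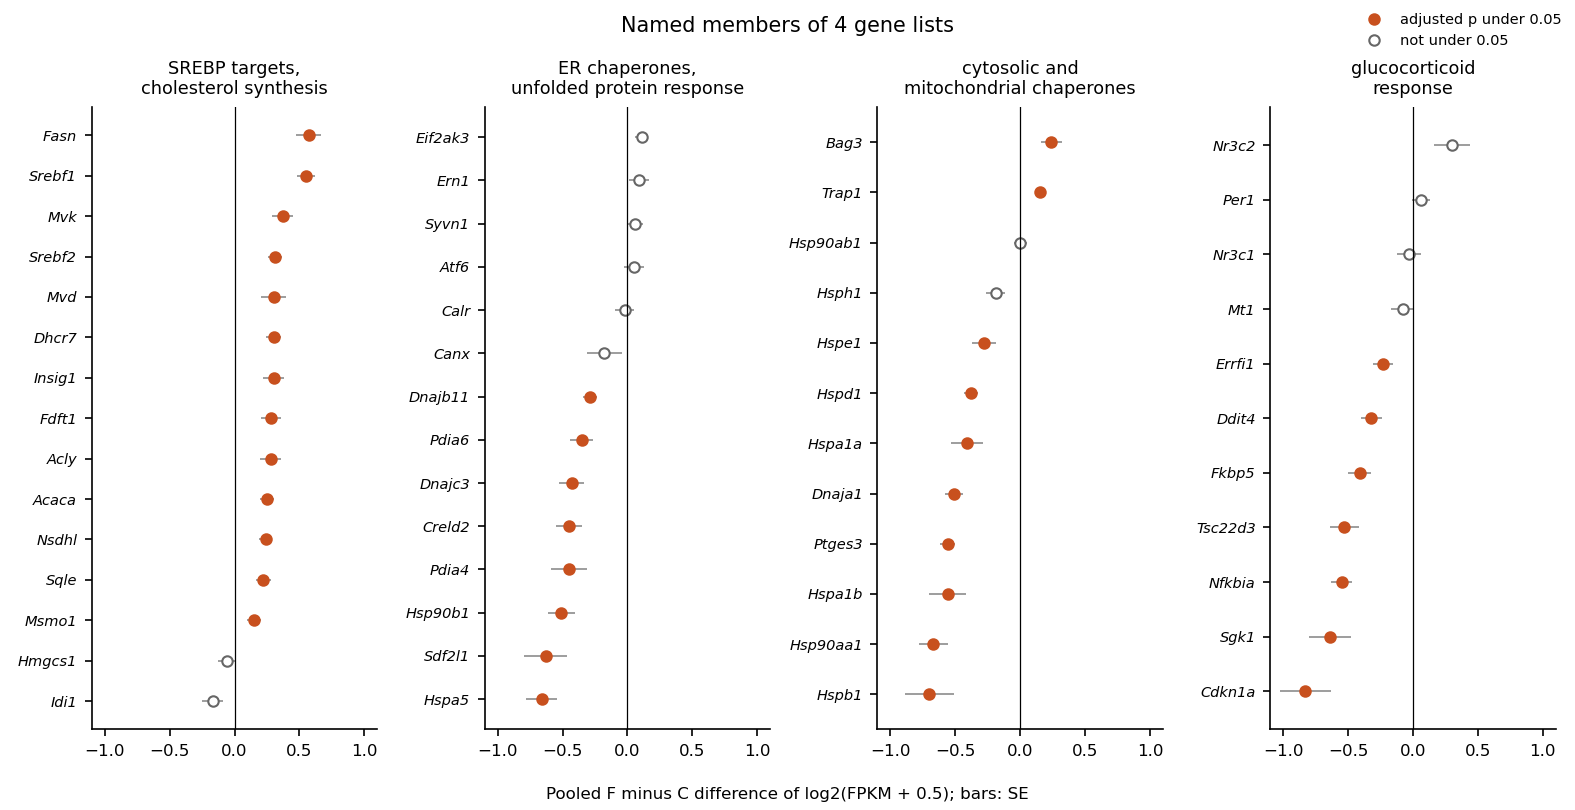
Pooled F minus C difference of log2(FPKM + 0.5) for the members of 4 lists that the text names, with SE bars; filled points have adjusted p under 0.05. Filled points of the SREBP list all lie right of 0, those of the ER chaperone and glucocorticoid lists all lie left, and those of the cytosolic and mitochondrial list lie left except Bag3 and Trap1.

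ER chaperones of the unfolded protein response were lower in F: 10 of 25 tested members fell and 0 rose, with a median of -0.13, against 13.3% of all rows falling. To show what these genes share in sequence, promoters (250 bases before to 50 after the start; RefSeq, GRCm38.p6) were searched on both strands for the ER stress element, CCAAT followed after 9 bases of any kind by CCACG. It was found in 8 of 22 members with a promoter and in 37 of 27025 genes (0.137%). The 5 falling members that hold it are Hspa5, Hsp90b1, Pdia6, Dnajc3 and Creld2; Calr, Canx and Syvn1 hold it and did not pass the test. The 3 promoters that follow belong to the falling holders with the smallest p, with the match in capitals, on the gene's strand: Hspa5 at chr2:34771840-34772139 (+), Hsp90b1 at chr10:86705395-86705694 (-), where the second match reads on the opposite strand, and Creld2 at chr15:88819396-88819695 (+), whose match also reads on the opposite strand. A match is a description of the letters, not a shown site.
Hspa5: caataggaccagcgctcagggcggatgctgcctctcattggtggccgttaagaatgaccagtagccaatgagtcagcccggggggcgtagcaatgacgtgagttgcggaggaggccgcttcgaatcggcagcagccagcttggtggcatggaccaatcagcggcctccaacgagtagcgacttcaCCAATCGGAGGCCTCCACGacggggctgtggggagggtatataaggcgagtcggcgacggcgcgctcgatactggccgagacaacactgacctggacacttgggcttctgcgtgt
Hsp90b1: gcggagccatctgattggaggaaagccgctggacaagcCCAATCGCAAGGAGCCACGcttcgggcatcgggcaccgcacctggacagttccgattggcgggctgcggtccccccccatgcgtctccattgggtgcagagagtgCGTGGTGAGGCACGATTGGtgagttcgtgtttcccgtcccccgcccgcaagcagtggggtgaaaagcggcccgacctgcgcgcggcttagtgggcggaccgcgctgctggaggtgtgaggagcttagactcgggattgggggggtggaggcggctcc
Creld2: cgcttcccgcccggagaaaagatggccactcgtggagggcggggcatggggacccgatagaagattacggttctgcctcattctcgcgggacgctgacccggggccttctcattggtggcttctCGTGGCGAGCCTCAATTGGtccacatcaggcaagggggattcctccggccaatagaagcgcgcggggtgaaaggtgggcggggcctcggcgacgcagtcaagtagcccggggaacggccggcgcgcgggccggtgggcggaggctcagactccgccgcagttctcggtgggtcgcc

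Hspa5 encodes BiP, the main ER chaperone and sensor of misfolded protein, and fell the most in this list. It lay at 106 to 182 FPKM (median 135) in CD-F and 121 to 226 FPKM (median 143) in HFD-F, against 189 to 383 FPKM (median 231) in CD-C and 143 to 303 FPKM (median 234) in HFD-C. All 8 CD-F libraries lay below every CD-C library, while 4 of 8 HFD-F libraries lay below every HFD-C library. The pooled difference was -0.66 (SE 0.12, adjusted p = 0.000226), with -0.88 under CD dams (adjusted p = 0.000725) and -0.45 under HFD dams (adjusted p = 0.141). Hsp90b1, the ER form of Hsp90, lay at 20 to 44.1 FPKM in F (median 38.6), against 40 to 62.6 FPKM in C (median 48.9) and differed by -0.51 (SE 0.103, adjusted p = 0.000563), and Creld2, a stress-induced disulfide isomerase, lay at 31.7 to 53.7 FPKM in F (median 36.2), against 35.1 to 93.8 FPKM in C (median 53.5) and differed by -0.45 (SE 0.0969, adjusted p = 0.00114). Dnajb11, a BiP co-chaperone, fell by a difference of -0.29 (adjusted p = 0.000395), and Sdf2l1 and Pdia4 by -0.63 and -0.45. The sensors Eif2ak3, Ern1 and Atf6, which start the unfolded protein response, were at 0.11, 0.09 and 0.05 and did not pass. Under CD dams 9 members were lower and under HFD dams 0, while the interaction of the codes passed for 0 rows. Removing the GC trend left 10, leaving out the Alb-bearing libraries 6 and averaging by title prefix 3; in that last setting Hspa5 (-0.53, adjusted p = 0.0624) and Creld2 (-0.34, adjusted p = 0.101) did not pass. In the shared prefixes the median was 0.05, 19 of 25 members were above 0, Hspa5 was at 0.09 and Hsp90b1 at -0.11.

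Chaperones of the cytosol and mitochondria were also lower: 13 of 25 fell, 2 rose (Bag3 and Trap1), and the median was -0.14. Over all rows 13.3% fell and 9.8% rose. Ptges3, or p23, the co-chaperone that stabilizes Hsp90 bound to its clients, glucocorticoid receptor included (chr10:128058982-128077254), lay between 54.5 and 74.5 FPKM in CD-F (median 62.9) and between 64.4 and 74.6 FPKM in HFD-F (median 68.7), against 93.3 to 115 FPKM in CD-C (median 101) and 76.3 to 114 FPKM in HFD-C (median 100). No F library reached the level of any C library, and the difference was -0.56 (SE 0.0554, adjusted p = 8.74e-08), with -0.67 under CD dams (adjusted p = 4.35e-06) and -0.46 under HFD dams (adjusted p = 0.00139) and -0.26 within the shared prefixes. Hsp90aa1, the inducible cytosolic Hsp90, lay at 137 to 334 FPKM in F (median 244), against 310 to 410 FPKM in C (median 376) and differed by -0.67 (SE 0.112, adjusted p = 8.62e-05), whereas the constitutive Hsp90ab1 did not pass, at 0.00 (adjusted p = 0.967). Hspd1, the mitochondrial Hsp60, lay at 60 to 89.4 FPKM in F (median 76), against 82.3 to 109 FPKM in C (median 97.7), with 14 of 16 F libraries below every C library and a difference of -0.38 (SE 0.0511, adjusted p = 6.05e-06). Dnaja1, an Hsp70 co-chaperone that shares its row with Mir207, fell by a difference of -0.51 (adjusted p = 5.4e-06), and Hspb1, a small heat shock protein, by -0.70 (SE 0.19, adjusted p = 0.0073). Hspa1a and Hspa1b fell too, but they are near-identical copies and stand on 4 rows each, so their values are uncertain. With the GC trend removed 8 members were lower and 0 higher, without the Alb-bearing libraries 6 were lower, and with means per title prefix 8. Inside the prefixes holding both letters the median was -0.07, with 15 of 25 members below 0 and Hsp90aa1 at -0.43.

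The heat shock element, searched on both strands as GAA, TTC and GAA with 2 free bases between neighbours, was found in 3 of 20 members with a promoter, Hspd1 and Hspe1, which fell, and Hsph1, which did not pass, and in 0.662% of all 27025 genes. Hspd1 and Hspe1 are neighbours read from a shared promoter region, so their matches are not separate. The Hspd1 promoter, with 2 overlapping matches in capitals, lies at chr1:55087883-55088182 (-).
Hspd1: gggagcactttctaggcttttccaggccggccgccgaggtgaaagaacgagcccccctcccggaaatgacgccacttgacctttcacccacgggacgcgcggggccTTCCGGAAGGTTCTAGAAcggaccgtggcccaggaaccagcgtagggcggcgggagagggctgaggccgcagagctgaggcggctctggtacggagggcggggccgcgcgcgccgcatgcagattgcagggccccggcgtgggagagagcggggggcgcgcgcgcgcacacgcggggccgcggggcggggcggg

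Genes of the glucocorticoid response were lower as a list, which also holds the receptors, neither of which passed. Of 15 members 7 fell and 0 rose, against 13.3% of all rows falling, and the median was -0.23. Nfkbia, the inhibitor that holds NF-kappaB in the cytosol, lay at 37.2 to 74 FPKM (median 45.6) in CD-F and 34.6 to 53.4 FPKM (median 48.6) in HFD-F, against 57.3 to 82.2 FPKM (median 72.5) in CD-C and 55.5 to 82.4 FPKM (median 63.1) in HFD-C. 13 of 16 F libraries lay below every C library, all 8 HFD-F libraries lay below every HFD-C library, and 5 of 8 CD-F libraries lay below every CD-C library. The difference was -0.55 (SE 0.0789, adjusted p = 1.28e-05), with -0.53 under CD dams (adjusted p = 0.0022) and -0.57 under HFD dams (adjusted p = 0.0102) and -0.45 within the shared prefixes. Tsc22d3, the anti-inflammatory protein GILZ, lay at 22.2 to 54.4 FPKM in F (median 38.5), against 35.7 to 65.5 FPKM in C (median 55.5) and differed by -0.53 (SE 0.113, adjusted p = 0.0009). Cdkn1a, the cell cycle inhibitor p21, lay at 4.6 to 17.3 FPKM in F (median 8.12), against 5.88 to 31.3 FPKM in C (median 13.9) and differed by -0.83 (SE 0.196, adjusted p = 0.00235), and Fkbp5, a co-chaperone that lowers the receptor's hormone affinity, by -0.41 (SE 0.09, adjusted p = 0.00129); both stand on 2 rows, of which the one with the higher mean is given. Sgk1, a kinase, differed by -0.64 (SE 0.163, adjusted p = 0.00476), and Ddit4 and Errfi1 by -0.32 and -0.23. The receptors did not pass, with Nr3c1, the glucocorticoid receptor, at -0.03 (adjusted p = 0.849) and Nr3c2, the mineralocorticoid receptor, at 0.30 (adjusted p = 0.118), and neither did Per1 (0.06). With the GC trend removed 6 members were lower, without the Alb-bearing libraries 5, and with means per title prefix 5. Within the shared prefixes 13 of 15 were below 0 with a median of -0.13, although Cdkn1a was at -0.03. The receptor's binding sequence, searched on both strands as ACA and TGTTC with 3 free bases between, was found in 2 of 13 promoters, those of Sgk1, which fell, and Mt1, which did not pass, and in 1.12% of all genes.

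RNA cap-binding, splicing and hnRNP genes had the most calls by share: 18 of 25 fell and 0 rose, with a median of -0.36, against 13.3% of all rows falling. Ncbp2, the cap-binding subunit of the nuclear cap-binding complex, lay between 21.7 and 29.6 FPKM in CD-F (median 26.4) and between 25.3 and 33.6 FPKM in HFD-F (median 27.4), against 34.5 to 38.7 FPKM in CD-C (median 36.7) and 32.3 to 42.6 FPKM in HFD-C (median 37.4). 15 of 16 F libraries lay below every C library, and the difference was -0.45 (SE 0.0466, adjusted p = 1.53e-07). Hnrnpa1, a repressor of splice sites, differed by -0.36 (adjusted p = 2.46e-06), Tra2b, an activator of splicing, by -0.42 (adjusted p = 4.6e-06), and Srsf10, a splicing repressor under heat shock, by -0.71 (SE 0.107, adjusted p = 2.28e-05). Srsf1, Srsf2, Hnrnpc and Hnrnpk did not pass, at -0.07, -0.06, -0.04 and -0.07. With the GC trend removed 13 members were lower and the median was -0.18. Without the Alb-bearing libraries 15 were lower and with means per title prefix 16. With prefix as a block 21 of 25 lay below 0, with a median of -0.18 and Ncbp2 at -0.29.

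Complete separation of the letters occurred only downwards. At 15 rows (0.0935%) every F library lay below every C library, and at 0 rows did every F library lie above every C library. The 15, named after their values were seen where the rule did not take them, are Cbx3, Cbx3-ps6, Cfap36, Fam133b, Gm21596, Gm6741, Gm9830, Hmgb1-ps2, Larp7, Ndufaf4, Ptges3, Rap1a, Smim10l1, Trnt1 and Zfp958. Larp7, which stabilizes the 7SK RNA that holds back transcription elongation (chr3:127536714-127553349), lay at 16.8 to 19.8 FPKM (median 18.6) in CD-F and 17.1 to 20.5 FPKM (median 18.8) in HFD-F, against 22.6 to 27.5 FPKM (median 24.5) in CD-C and 21.7 to 25.8 FPKM (median 23.8) in HFD-C. The spread within each group was small, and the difference was -0.37 (SE 0.0367, adjusted p = 8.74e-08), with -0.42 under CD dams (adjusted p = 1.7e-05) and -0.33 under HFD dams (adjusted p = 0.00127) and -0.32 within the shared prefixes. Cbx3, the heterochromatin protein HP1 gamma, lay at 41.6 to 75.4 FPKM in F (median 64.5), against 76.4 to 101 FPKM in C (median 84.7) and differed by -0.51 (SE 0.0726, adjusted p = 1.3e-05). Its processed pseudogene Cbx3-ps6 is a near copy, and how reads were divided between them is not given in the sources used here. Ndufaf4, an assembly factor of respiratory complex I, and Trnt1, which adds the CCA end to tRNAs, differed by -0.57 (adjusted p = 7.15e-06) and -0.43 (adjusted p = 4.6e-06). Rap1a, a small GTPase of integrin and cAMP signalling, differed by -0.51 (adjusted p = 1.19e-06) and Fam133b by -0.49 (adjusted p = 3.2e-08). Trnt1 had a median of 1.06 FPKM in F and 1.57 FPKM in C, and Zfp958 one of 2.43 FPKM in F and 4.05 FPKM in C.

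The rest of the 12 falling rows with the smallest p were Ufm1, a ubiquitin-like modifier (-0.29, adjusted p = 1.19e-06), Zfp35, a zinc finger protein (-0.44, adjusted p = 1.66e-06), Yipf4, a Golgi membrane protein (-0.38, adjusted p = 2.12e-06), Cdk8, the Mediator kinase (-0.26, adjusted p = 2.37e-06), Srek1ip1, a partner of a splicing regulator (-0.51, adjusted p = 2.58e-06), and Pnrc2, a factor of nonsense-mediated decay (-0.48, adjusted p = 2.58e-06). With the GC trend removed, 3 of them no longer passed: Ufm1 (-0.09, adjusted p = 0.179), Yipf4 (-0.10, adjusted p = 0.355) and Cdk8 (-0.09, adjusted p = 0.101). All 12 falling rows lay below 0 within the shared prefixes.

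Differences followed the base composition of the transcripts. Over 14774 rows with a GENCODE transcript, the pooled difference had a Spearman correlation of 0.525 with GC content and 0.017 with length, as a description across rows. The median GC content was 54.7% for higher calls and 42.8% for lower calls, against 49.9% for all rows. When rows were put into 10 equal bins by GC, the lowest bin (median 39.9%) had a median difference of -0.279, with 5 rows higher and 764 lower, and the highest bin (median 59.9%) one of 0.131, with 303 higher and 15 lower. Single libraries showed the trend to different degrees: its slope per 10 points of GC ran over -0.08 to 0.467 (median 0.167) in CD-F and -0.088 to 0.185 (median -0.004) in HFD-F, against -0.121 to -0.02 (median -0.05) in CD-C and -0.183 to -0.042 (median -0.098) in HFD-C. After the trend was removed from each library, 772 rows were higher and 1136 lower, and 503 of 1501 higher and 856 of 1980 lower calls with a GC value remained. The part of extraction, library preparation or regulation in this trend was not tested.

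**Figure D4:**
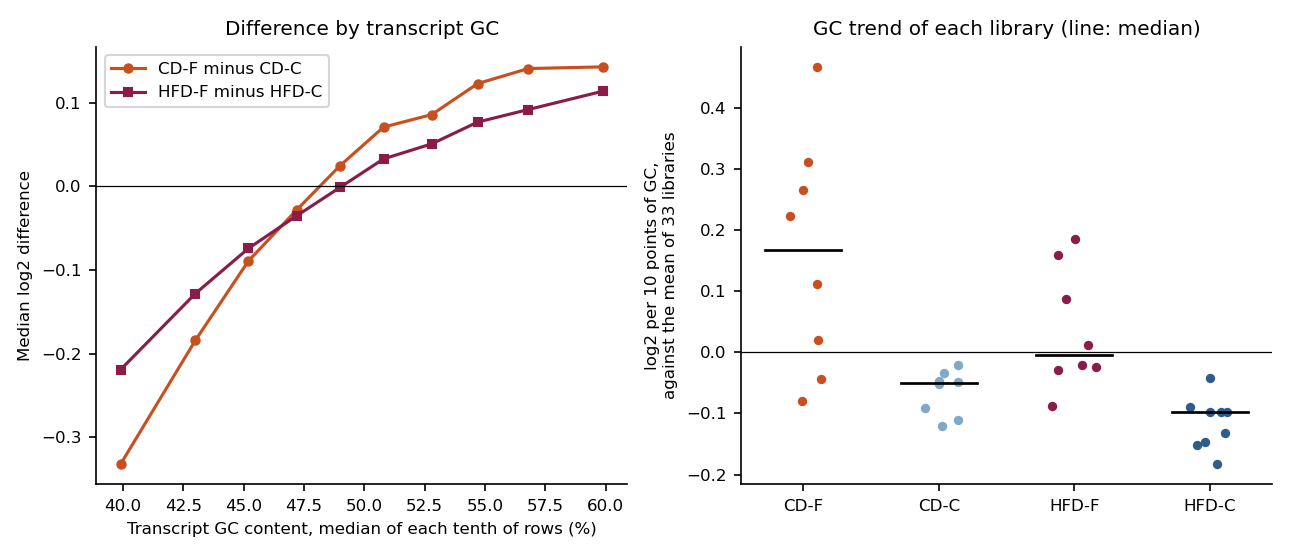
Left, the median log2 difference in each of 10 equal bins of rows by transcript GC content (%), for CD-F minus CD-C and HFD-F minus HFD-C. Right, the slope of log2 values on GC (log2 per 10 points, against the mean of 33 libraries) in each library, with group medians as lines; both differences climb from below 0 at low GC to above 0 at high GC, and the F libraries reach the steeper slopes.

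Some microglial and complement genes were higher in F, beside 9.8% of all rows called higher and 13.3% called lower. Csf1r, the growth factor receptor on which microglia depend, lay between 799 and 1170 FPKM in CD-F (median 1090) and between 898 and 1170 FPKM in HFD-F (median 954), against 659 to 959 FPKM in CD-C (median 761) and 658 to 976 FPKM in HFD-C (median 789). 9 of 16 F libraries lay above every C library, and the difference was 0.37 (SE 0.0643, adjusted p = 0.000127). Sall1, the transcription factor of microglial identity, differed by 0.43 (adjusted p = 0.000121), but the other 10 of 12 microglial markers did not pass, among them Tmem119 (0.20, adjusted p = 0.0666), P2ry12 (-0.10, adjusted p = 0.731) and Cx3cr1 (-0.27, adjusted p = 0.63), so 2 of 12 rose with a list median of 0.14. Of 14 complement and engulfment genes, 6 rose and 1 fell, with a median of 0.20. Itgam, the CD11b chain of complement receptor 3, lay at 46.7 to 80.1 FPKM in F (median 58.7), against 20.9 to 66.3 FPKM in C (median 42.6) and differed by 0.49 (SE 0.0989, adjusted p = 0.000561), its partner Itgb2 by 0.31 (adjusted p = 0.0076) (0.22, adjusted p = 0.0639, without the Alb-bearing libraries), and Sirpa, the receptor of a "do not eat me" signal, by 0.19 (adjusted p = 0.000276). Sirpa did not pass with the GC trend removed (0.09, adjusted p = 0.058). C1qc rose by 0.31 (SE 0.103, adjusted p = 0.027), while Mertk, an engulfment receptor, was the member that fell, by a difference of -0.28 (adjusted p = 0.0322). With the GC trend removed the counts were 4 and 1, and without the Alb-bearing libraries 3 and 1. In the shared prefixes the medians were -0.13 for microglia and 0.07 for complement, with Csf1r at 0.12. A different number of microglia and a different amount of RNA per microglial cell cannot be told apart in bulk tissue, and the same holds for every cell type here.

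Among inflammatory genes, several of the NF-kappaB pathway were called and none of the interferon list, beside 9.8% of all rows higher and 13.3% lower. Of 11 tested NF-kappaB and cytokine genes, 3 rose and 1, Nfkbia, fell; Tgfb1 differed by 0.39 (adjusted p = 0.00085) and Rela, an NF-kappaB subunit, by 0.23 (adjusted p = 0.00541). Rela did not pass with the GC trend removed (0.10, adjusted p = 0.175) or with means per title prefix (0.23, adjusted p = 0.0694), and was at 0.00 within the shared prefixes. The list had 1 higher and 1 lower in each of the first pair of settings. Tnf, Il1b, Il6, Il10 and Ccl2 had a mean under 0.5 FPKM and were not tested. Among 16 interferon response and MHC class I genes, 0 passed in either direction, and the smallest p was that of Psmb9, an immunoproteasome subunit (0.41, adjusted p = 0.0908). Within the shared prefixes 13 of the 16 lay above 0 and 3 below, with a median of 0.24. Oas1g, an oligoadenylate synthetase gene outside this list, was called higher in F by at least 1 log2 and was named after its values were seen. For Oas1g 7 of 16 F libraries lay above every C library, and its difference within the shared prefixes was 1.49 (SE 0.724).

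Some vascular genes were higher in F in the pooled fit, in which 9.8% of all rows were called higher. Of 10 endothelial markers 6 rose and 0 fell (median 0.32), and of 7 pericyte and smooth muscle markers 3 rose (median 0.25). The differences of 3 endothelial markers and 1 pericyte or smooth muscle marker lay below 0, the lowest at -0.25 and -0.22. Cdh5, the endothelial cadherin, lay at 5.04 to 12.9 FPKM in F (median 7.82), against 4.69 to 8.12 FPKM in C (median 5.33) and differed by 0.43 (SE 0.107, adjusted p = 0.00363); Flt1, a VEGF receptor, differed by 0.38 (adjusted p = 0.00637), and Pdgfrb, the pericyte growth factor receptor, by 0.44 (adjusted p = 0.00176). Under either dam alone 0 endothelial markers were called, and the summed endothelial markers overlapped, with medians of 429 FPKM in CD-F and 496 FPKM in HFD-F, against 478 FPKM in CD-C and 463 FPKM in HFD-C. With the GC trend removed the counts were 4 higher and 1 lower, and with means per title prefix 3 higher. Inside the prefixes holding both letters 9 of 10 endothelial markers lay above 0, with a median of 0.18. Of 11 meningeal fibroblast markers, Slc6a13, a GABA and taurine transporter, and Aldh1a2, which makes retinoic acid, rose, by 1.02 (adjusted p = 0.00737) and 0.78 (adjusted p = 0.0483); Aldh1a2 did not pass with the GC trend removed (0.72, adjusted p = 0.0829) or without the Alb-bearing libraries (0.88, adjusted p = 0.0582). Slc6a13 lay at 5.37 to 44 FPKM in F (median 19), against 2.32 to 21.6 FPKM in C (median 8.65). All 12 choroid plexus markers failed the test at a median of 0.49, their sum without Ttr ranging over 200 to 5710 FPKM in CD-F and 138 to 2890 FPKM in HFD-F, against 264 to 4110 FPKM in CD-C and 233 to 1330 FPKM in HFD-C. The part of dissection in the vascular and meningeal differences was not tested.

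Some synaptic genes were higher and others lower in F, and most presynaptic calls were lost with the GC trend removed. Of 25 presynaptic release genes 8 rose and 0 fell, with a median of 0.13; Cplx1, the complexin that clamps vesicle fusion, differed by 0.34 (adjusted p = 0.000593), Vamp2, the vesicle SNARE, by 0.21 (adjusted p = 0.00201), and Syn1, synapsin, by 0.21 (adjusted p = 0.00746). With the GC trend removed 1 of the 25 passed, Cplx1 at 0.22, adjusted p = 0.0299. Vamp2 (0.13, adjusted p = 0.0748) and Syn1 (0.08, adjusted p = 0.396) did not. Of 25 excitatory postsynaptic genes 4 rose and 3 fell, beside 9.8% and 13.3% of all rows, and with the GC trend removed 2 rose and 2 fell. Grin1, the obligatory NMDA receptor subunit, differed by 0.22 (adjusted p = 0.0129), whereas Gria2, the AMPA receptor subunit that blocks calcium, differed by -0.60 (adjusted p = 0.000902) and Grm5 by -0.49 (adjusted p = 0.00283). Grin1 did not pass with the GC trend removed (0.09, adjusted p = 0.417) or with means per title prefix (0.21, adjusted p = 0.0551). Gria2 lay at 122 to 493 FPKM (median 275) in CD-F and 258 to 512 FPKM (median 409) in HFD-F, against 398 to 553 FPKM (median 453) in CD-C and 468 to 591 FPKM (median 523) in HFD-C. The lowest values belonged to CD-F, and F and C overlapped. Of 16 GABA receptor genes 4 fell, among them Gabrb2 (-0.50, adjusted p = 0.0133), and 0 rose, and with the GC trend removed the counts were 1 lower and 1 higher. Without the Alb-bearing libraries 2 were lower.

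Activity-regulated genes were higher in the pooled fit: 7 of 18 immediate early genes rose and 0 fell, with a median of 0.19. Of all rows, 9.8% rose and 13.3% fell. Egr1, a transcription factor induced by synaptic activity, lay between 43.3 and 117 FPKM in CD-F (median 91.5) and between 50.5 and 137 FPKM in HFD-F (median 76.2), against 31.5 to 58.5 FPKM in CD-C (median 52.6) and 36.3 to 97.6 FPKM in HFD-C (median 53.3). The groups overlapped, and the difference was 0.55 (SE 0.134, adjusted p = 0.00336), with 0.72 under CD dams (adjusted p = 0.0104) and 0.38 under HFD dams (adjusted p = 0.281). Npas4, induced by calcium entry in neurons, differed by 0.54 (adjusted p = 0.00501), and Fos by 0.36 (adjusted p = 0.0426), neither of which passed with means per title prefix (0.50, adjusted p = 0.08, for Npas4 and 0.34, adjusted p = 0.205, for Fos), while Arc, whose RNA travels to dendrites, did not pass (0.06, adjusted p = 0.826). The count changed with the setting: 7 members passed without CD-F replicate 8 and HFD-F replicate 8, 2 passed without the Alb-bearing libraries, 3 with the GC trend removed (not Fos, 0.29, adjusted p = 0.12) and 0 with means per title prefix, and within the shared prefixes the median was -0.03 with Egr1 at -0.05. Among 14 neurotrophin and CREB genes, Bdnf, the activity-regulated neurotrophin, and Creb1, the cAMP-responsive factor, fell, by differences of -0.34 (adjusted p = 0.0102) and -0.76 (adjusted p = 0.00741), and Ntrk2, the Bdnf receptor, and Vgf rose, by 0.23 (adjusted p = 0.0121) and 0.32 (adjusted p = 0.0147). Bdnf lay at 24.3 to 50.2 FPKM in F (median 31.3), against 29.1 to 60.3 FPKM in C (median 41.7) and did not pass with the GC trend removed (-0.12, adjusted p = 0.467) or without the Alb-bearing libraries (-0.29, adjusted p = 0.0692). Nor did Bdnf pass with means per title prefix (-0.36, adjusted p = 0.0617). Creb1 (-0.51, adjusted p = 0.0507) and Vgf (0.20, adjusted p = 0.152) did not pass with the GC trend removed either, which left 1 higher and 0 lower of the 14. The cyclic AMP response element TGACGTCA, searched on both strands, was found in 2 of 14 immediate early gene promoters, those of Dusp1 and Btg2, which did not pass, in 0 of 6 risers with a promoter and in 2.03% of all genes. Of 10 oxytocin, vasopressin and dopamine genes 0 passed, Oxtr being at 0.15 (adjusted p = 0.484), and of 18 clock genes 2 rose and 2 fell.

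Short-chain fatty acid genes were mostly too low to test. Of 17 listed names, 16 were found among the deposited rows and 7 reached a mean of 0.5 FPKM, which the receptors Ffar2, Ffar3 and Hcar2 did not. Acss2, the synthetase that turns acetate into acetyl-CoA, lay at 13 to 15.7 FPKM (median 14.4) in CD-F and 12.3 to 14.6 FPKM (median 13.4) in HFD-F, against 10.8 to 12.5 FPKM (median 12) in CD-C and 10.4 to 13.6 FPKM (median 11.7) in HFD-C. All 8 CD-F libraries lay above every CD-C library, 4 of 8 HFD-F libraries above every HFD-C library, and the difference was 0.21 (SE 0.0407, adjusted p = 0.000332), but 0.01 within the shared prefixes. Slc16a7, the monocarboxylate transporter MCT2 of neurons, lay at 16.8 to 66.1 FPKM in F (median 41.5), against 44.5 to 65.2 FPKM in C (median 55.6) and differed by -0.39 (SE 0.117, adjusted p = 0.016), but did not pass with the GC trend removed or without the Alb-bearing libraries (-0.36, adjusted p = 0.0663). Slc16a1, or MCT1, did not pass (0.03, adjusted p = 0.787).

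Histone deacetylases and sirtuins showed no common direction: 3 of 18 rose and 2 fell, beside 9.8% and 13.3% of all rows. Hdac2, a class I deacetylase that restrains synaptic genes, lay between 43.6 and 59.8 FPKM in CD-F (median 51.1) and between 49.8 and 62 FPKM in HFD-F (median 52.2), against 61.3 to 76.9 FPKM in CD-C (median 67.1) and 58.4 to 76 FPKM in HFD-C (median 65.3). 13 of 16 F libraries lay below every C library, and the difference was -0.34 (SE 0.0464, adjusted p = 6.9e-06). It was at -0.15, adjusted p = 0.0439, with the GC trend removed and at -0.14 within the shared prefixes. Hdac3 did not pass (0.03, adjusted p = 0.749). Sirt1, an NAD-dependent deacetylase, differed by -0.37 (adjusted p = 0.00327), and Hdac5, whose row also holds Mir8101, by 0.23 (adjusted p = 0.00437). Hdac5 did not pass with the GC trend removed (0.09, adjusted p = 0.168), and the list then had 2 higher and 3 lower.

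Of 25 pyruvate and citric acid cycle genes 5 rose and 3 fell, beside 9.8% and 13.3% of all rows: Pcx, Ogdh (0.28, adjusted p = 4.9e-05), Pdk2 and Cs were among the higher, while Dld, a subunit shared by several mitochondrial dehydrogenase complexes, Sucla2 (-0.41, adjusted p = 0.000187) and Pdha1 were lower. Dld lay at 6.94 to 11.5 FPKM in F (median 9.37), against 11.5 to 13.4 FPKM in C (median 12.3), with 15 of 16 F libraries below every C library and a difference of -0.40 (SE 0.0562, adjusted p = 1.1e-05). Of 23 fatty acid oxidation and ketone genes, Hadha (0.22, adjusted p = 0.00158), Cpt1c and Cpt1a rose and Oxct1, which activates ketone bodies (-0.16, adjusted p = 0.00115), and Etfa fell. Removing the GC trend left 2 higher and 2 lower in the first list and 1 higher and 1 lower in the second, and Cpt1c (0.08, adjusted p = 0.226) and Etfa (-0.13, adjusted p = 0.255) did not pass. Etfa also did not pass with means per title prefix (-0.24, adjusted p = 0.0567) or without the Alb-bearing libraries (-0.21, adjusted p = 0.05). Beside 13.3% of all rows lower, ribosomal protein genes passed at 2 of 35, Rpl5 and Rpl7, both lower, and respiratory chain genes at 4 of 32, all lower. Without CD-F replicate 8 and HFD-F replicate 8, which lie far out on the first principal component (11.7% of variance), these counts were 15 of 35 and 19 of 32, all lower, and with the GC trend removed 0 passed in either list. Within the shared prefixes 34 of 35 ribosomal genes lay below 0 with a median of -0.23, and 28 of 32 respiratory genes with a median of -0.16. There HFD-C replicate 8 was the only C library of prefix HFD3.2, and its Rpl7 stood apart as the highest of HFD-C (71.3 FPKM). The part of this 1 library in the within-prefix values was not tested. Rpl5 lay at 98.3 to 211 FPKM in F (median 113), against 127 to 214 FPKM in C (median 151), with the highest F value in CD-F replicate 8.

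Of other lists, 1 of 24 autism-associated regulators rose, Tsc2, and 5 fell, among them Fmr1, the fragile X protein gene (-0.51, adjusted p = 0.000427), and Tcf4 (-0.47, adjusted p = 0.000157). Dentate granule cell markers had 3 of 12 lower, among them C1ql3 (-0.53, adjusted p = 0.000536) and Calb1 (-0.45, adjusted p = 0.000929), and 0 higher, and myelin markers 2 of 12 lower, among them Ermn, with 0 higher. These counts stand beside 9.8% of all rows called higher and 13.3% called lower. After removal of the GC trend the autism list had 0 higher and 2 lower, the dentate list 1 lower and the myelin list 1 lower. In that setting Tsc2 (0.07, adjusted p = 0.304), Calb1 (-0.13, adjusted p = 0.43) and Ermn (-0.19, adjusted p = 0.446) did not pass. Ermn also did not pass with means per title prefix (-0.45, adjusted p = 0.0832). With prefix as a block, 6 of 12 dentate markers lay above and 6 below 0, and 11 of 12 myelin markers below 0. Pan-neuronal markers passed at 0 of 10.

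**Figure D5:**
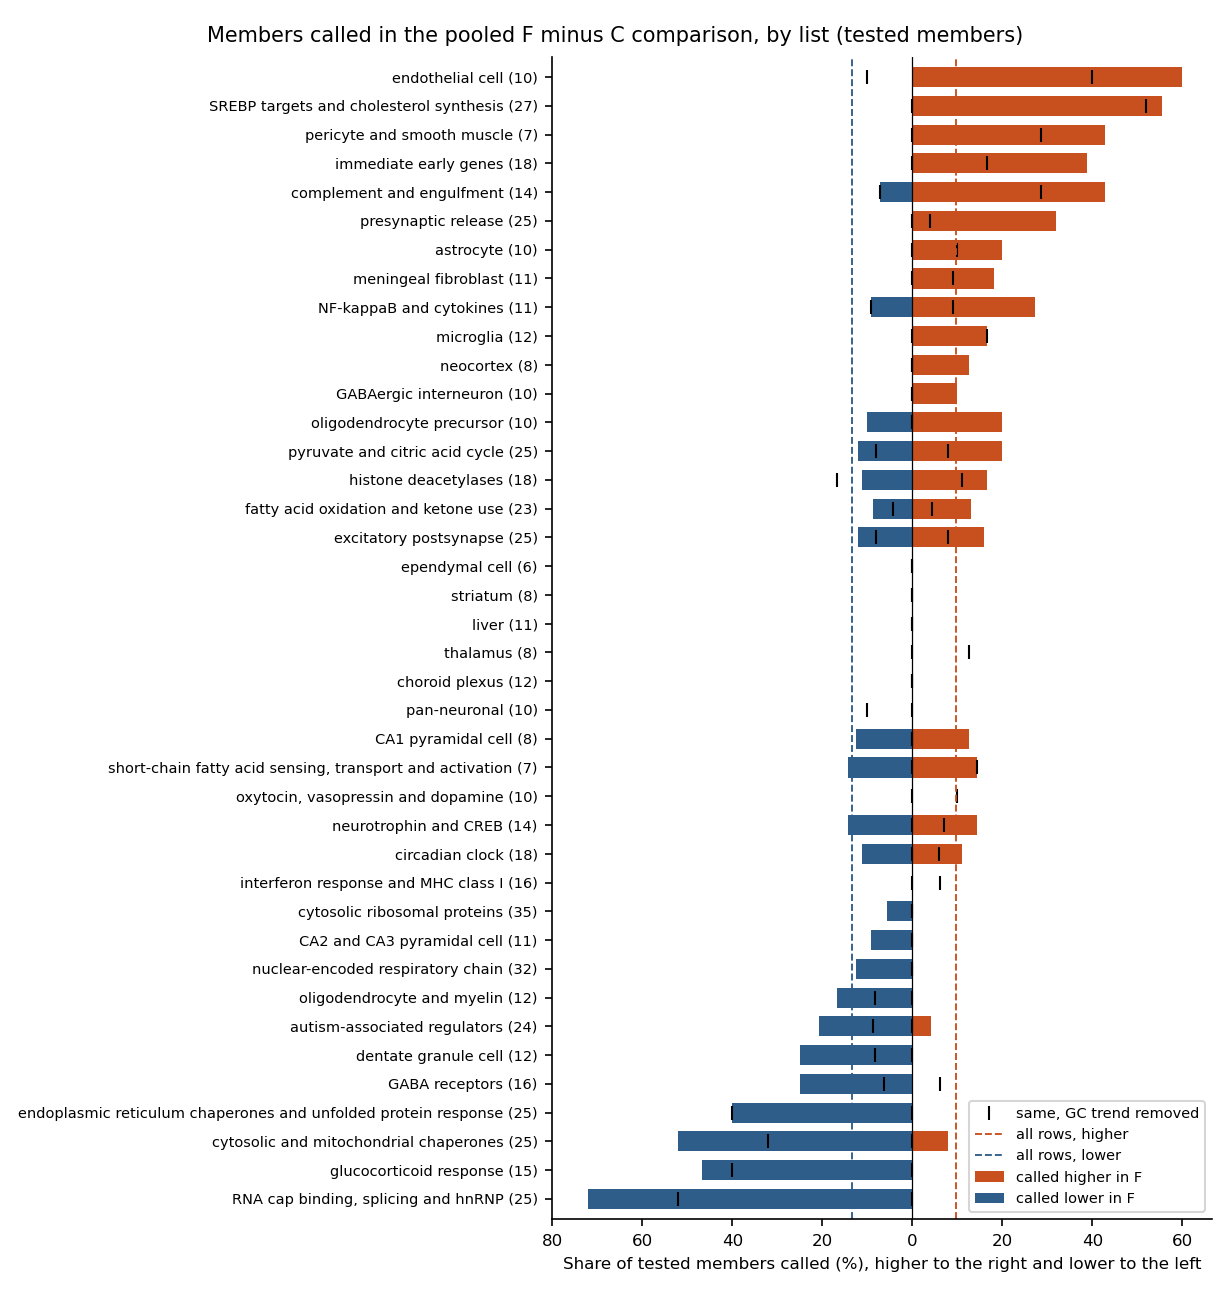
Share of tested members called higher (right, in %) or lower (left, in %) in F for lists with at least 6 tested members, whose number is in brackets; black ticks give the share with the GC trend removed, and dashed lines the shares over all rows, 9.8% higher and 13.3% lower. The RNA, glucocorticoid and chaperone bars extend farthest left and the endothelial and SREBP bars farthest right.

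Calls of at least 1 log2 were few and often rested on a few libraries; those named here were chosen after their values were seen. Rims3, a presynaptic active zone protein, lay at 5.05 to 22.2 FPKM (median 6.86) in CD-F and 3.88 to 14 FPKM (median 6.27) in HFD-F, against 1.04 to 8.18 FPKM (median 2.02) in CD-C and 1.2 to 6.27 FPKM (median 3.84) in HFD-C, and differed by 1.21 (SE 0.233, adjusted p = 0.000382), with 0.77 within the shared prefixes. Every F library lay above the mean of the C libraries of its dam, but the ranges overlapped. Plin4, a lipid droplet protein, lay at 2.13 to 32.1 FPKM in F (median 12.7), against 4.81 to 76.1 FPKM in C (median 23.1) and differed by -1.09 (SE 0.308, adjusted p = 0.01), though by 0.20 within the shared prefixes. Fabp4, a fatty acid carrier of adipocytes and vessels, lay between 0 and 0.549 FPKM in CD-F (median 0.0594) and between 0 and 0.422 FPKM in HFD-F (median 0), against 0 to 6.85 FPKM in CD-C (median 3.32) and 0 to 1.54 FPKM in HFD-C (median 0.75). Its highest values were in CD-C, the group with the Alb-bearing libraries, and the difference was -1.53 (SE 0.3, adjusted p = 0.000457). Within the shared prefixes, which hold only libraries of HFD dams, the difference of Fabp4 was -1.07 (SE 0.236). Lcn2, an iron-binding acute-phase protein, lay at 0 to 3.12 FPKM in F (median 0.41), against 0.0961 to 47.6 FPKM in C (median 1.35), with the highest values in single C libraries, and differed by -1.41 (SE 0.521, adjusted p = 0.0486), though by 0.18 within the shared prefixes. Lcn2 did not pass without the Alb-bearing libraries (-1.24, adjusted p = 0.147), and neither Lcn2 (-1.13, adjusted p = 0.0614) nor Plin4 (-0.83, adjusted p = 0.268) passed with means per title prefix.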

How the data were processed

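Hippocampal RNA of 33 mice, 1 per library according to the series' design text, was extracted with phenol-chloroform and sequenced on a BGI-500, per the labels' protocols. The authors deposited FPKM values for 42521 rows, 23263 of them assembled and 1354 naming more than 1 gene. Trimmomatic 0.38, HISAT2, StringTie 1.3.4d and GRCm38.p6 are named in the submitters' processing notes; neither strand handling nor a read total is stated there, so no count test was run and counting error is unknown.

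Libraries were grouped by label. Rows averaging 0.5 FPKM or more were fitted as log2(FPKM + 0.5) in limma 3.58.1 (R 4.3.3) with a mean-variance trend, on offspring code, maternal code and XX or XY mark. P-values are two-sided, Benjamini-Hochberg adjusted over all 16035 rows, and called under 0.05. Effects by dam came from a fit with 1 term per group.

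The members and gene lists were chosen with earlier results of these data known, so counts per list are descriptions. Genes were named by rule: the 12 smallest p-values per direction for rows of 1 gene at a mean of at least 1 FPKM, the smallest p-values by dam and interaction, and up to 4 called members per list; others were taken after their values were seen. Levels of different genes are not compared, since FPKM of assembled rows can be far from a gene's own. Promoters and gene positions came from RefSeq (GRCm38.p6). Transcript GC content and length were those of the longest GENCODE transcript of the gene symbol. Alternatives were other pseudocounts, filters, normalizations, GC trend removal, title prefix blocks or means, XX or XY alone, and leaving out libraries. No label says that libraries come from separate litters. Some genes that the naming rule took are not reported here.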

Additional observations from a re-analysis of the deposited data

Results flagged for a closer look

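In 31 of 416 groups of values (104 genes in 4 groups, 7.45%) the highest or lowest library stood apart from the rest of its group by Dixon's criterion; chance flags about 1 in 20 groups. Genes share libraries, so these flags are not independent.

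Ribosomal transcripts were flagged high in the same libraries. Rpl5 was highest in CD-F replicate 8 (211 FPKM), HFD-F replicate 8 (170 FPKM) and CD-C replicate 3 (214 FPKM). Rpl7 was highest in CD-F replicate 8 (95.3 FPKM), HFD-F replicate 8 (74.7 FPKM), CD-C replicate 3 (87 FPKM) and HFD-C replicate 8 (71.3 FPKM). Tmem119 was also highest in CD-F replicate 8 (9.26 FPKM) and CD-C replicate 3 (7.3 FPKM), and Zyx in CD-F replicate 8 (190 FPKM).

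Among chaperone and glucocorticoid genes, Hsp90b1 and Creld2 were highest in CD-C replicate 7 (62.6 and 93.8 FPKM), one of the Alb-bearing libraries, and Nfkbia was lowest in CD-C replicate 2 (57.3 FPKM), another of them. Man2b2 was highest in CD-F replicate 7 (127 FPKM). Of the RNA and chromatin genes, Ncbp2 was highest in HFD-F replicate 2 (33.6 FPKM), Cbx3 lowest in HFD-F replicate 4 (48.5 FPKM), Hdac3 lowest in CD-C replicate 2 (58.7 FPKM), Ctc1 lowest in CD-C replicate 5 (16.4 FPKM) and Cdk8 highest in CD-C replicate 7 (15.8 FPKM).

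Ttr was highest in CD-F replicate 7 (18800 FPKM), HFD-F replicate 4 (10500 FPKM) and CD-C replicate 7 (13300 FPKM). Cx3cr1 was highest in HFD-F replicate 5 (602 FPKM) and HFD-C replicate 6 (215 FPKM), and Cdh5 in HFD-C replicate 3 (8.12 FPKM). Rims3 was highest in CD-F replicate 3 (22.2 FPKM) and CD-C replicate 6 (8.18 FPKM), and Lcn2 in CD-C replicate 1 (47.6 FPKM) and HFD-C replicate 3 (33 FPKM). Creb1 was lowest in CD-C replicate 2 (43.9 FPKM) and HFD-C replicate 4 (20.4 FPKM).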

How the results depend on the processing

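The pooled counts, 1572 higher and 2129 lower, became 772 and 1136 with the GC trend removed and 844 and 1374 with the GC and length trends removed, a setting chosen after seeing the data. They were 121 and 476 in XX libraries alone and 396 and 786 in XY libraries alone, with fewer samples. Higher calls were 855 with means per title prefix and 1005 without the Alb-bearing libraries, and median centring gave 1915 higher and 1896 lower. Leaving out 1 library in turn gave 1284 to 1776 higher and 1929 to 2273 lower. Under CD dams, 2376 calls became 1426 with CD-F and CD-C alone, 946 and 1151 with the GC or the GC and length trends removed, 1138 with means per title prefix and 1170 without the Alb-bearing libraries, and 1705 to 2851 with 1 library left out. Under HFD dams, 319 calls became 28 and 82 with those trends removed, 8 with a fixed block for shared title prefixes, 0 with means per title prefix, 806 without the 2 libraries far out on the first principal component (chosen after seeing the data), 166 without the Alb-bearing libraries, and 99 to 604 with 1 library left out. The cause of these changes was not tested. Both interactions had 0 calls throughout the leave-one-out fits. Of 173 genes, 1 reversed with the GC trend removed, Rad17 (0.017), and 2 with the GC and length trends removed, Rad17 (0.036) and Bcan (-0.004). No reversal was found in the other settings counted per gene, which do not include the fixed prefix block; within the shared prefixes 10 of 139 named genes with a pooled call had the opposite sign, among them Hspa5 (0.09), Creld2 (0.06), Egr1 (-0.05) and Plin4 (0.20). Of the 173, 51 lost their call with the GC trend removed, 32 with means per title prefix and 28 without the Alb-bearing libraries. Libraries could not be paired by replicate number, which only follows the order of the samples; title prefixes served as blocks. No read totals are at hand, so depth sets an unknown limit for low rows.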
